A study of Mus musculus with 23 samples.

Results

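Primary mammary tumours were divided here into leucocyte-rich and leucocyte-poor by their own level of Ptprc, the gene of CD45, and both classes were chosen by that value alone. A tumour was called leucocyte-rich where its Ptprc value lay above the mean of its treatment group and leucocyte-poor where it lay at or below that mean, which placed 11 of the 23 tumours among the rich and 12 among the poor. The classes were therefore made from a measured value and are not conditions that the mice were assigned to, and the Ptprc values are given below as a description, with no test. The other genes of the panel were then compared between the classes within treatment groups.

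The tumours grew from E0771 luc2 GFP cells, a mammary carcinoma line of C57BL/6 origin that carries luciferase and green fluorescent protein and had been selected for homing to bone, after injection into the mammary ducts of female C57BL/6J mice that were 6 to 8 weeks old and immunocompetent. From day 9 the mice received Anakinra at 1 mg/kg daily together with doxorubicin at 2 mg/kg weekly and zoledronic acid at 100 µg/kg weekly (ADZ, 6 tumours), doxorubicin and zoledronic acid (DZ, 6 tumours), Anakinra alone (A, 5 tumours) or placebo (P, 6 tumours), and they were culled on day 23. RNA of each whole tumour, 150 ng, was counted with the barcoded probes of the NanoString nCounter panCancer mouse immune panel, without amplification, and the deposited values are log2 of normalised counts of 770 genes. The A and the DZ tumours came from 1 animal each, while for P and ADZ the sources used here do not give how many animals the tumours came from.

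CD45 is a tyrosine phosphatase on the surface of all nucleated cells of the blood lineage and is needed for signalling through antigen receptors. Carcinoma cells, endothelium and fibroblasts do not make it, so that in a mammary tumour it stands for leucocytes of every kind, among which macrophages are often the most frequent. In bulk RNA a higher value can come from more leucocytes or from more Ptprc RNA in each of them, and these cannot be told apart, for Ptprc or for any other gene described here.

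On the deposited log2 scale, Ptprc lay at 10.06 in the lowest, 10.49 in the median and 11.47 in the highest of the rich tumours, and at 9.13, 9.42 and 10.11 in the lowest, median and highest of the poor tumours. Relative to the group means, the ADZ tumours that were rich stood at 0.78 (ADZ1), 0.18 (ADZ5), 0.083 (ADZ6) and 0.081 (ADZ2), and those that were poor at −0.30 (ADZ4) and −0.83 (ADZ3). In DZ the rich tumours stood at 0.63 (DZ1), 0.46 (DZ3) and 0.28 (DZ6) and the poor ones at −0.061 (DZ4), −0.47 (DZ5) and −0.83 (DZ2). In A the rich tumours were A5 at 1.18 and A2 at 0.61, and the poor ones A1 at −0.51, A4 at −0.58 and A3 at −0.69. In P the rich tumours were P4 at 1.39 and P6 at 0.41, and the poor ones P2 at −0.12, P1 at −0.18, P5 at −0.57 and P3 at −0.93. The cut was thus narrow in ADZ and DZ and wide in A. ADZ2 and ADZ6 lay just inside the rich class and DZ4 just outside it, and these 3 were the tumours within 0.1 log2 units of their group mean. The treatment groups themselves averaged 9.98 ± 0.54 in ADZ, 10.17 ± 0.56 in DZ, 9.82 ± 0.84 in A and 10.08 ± 0.82 in P (SD, n = 6, 6, 5 and 6).

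**Figure D1:**
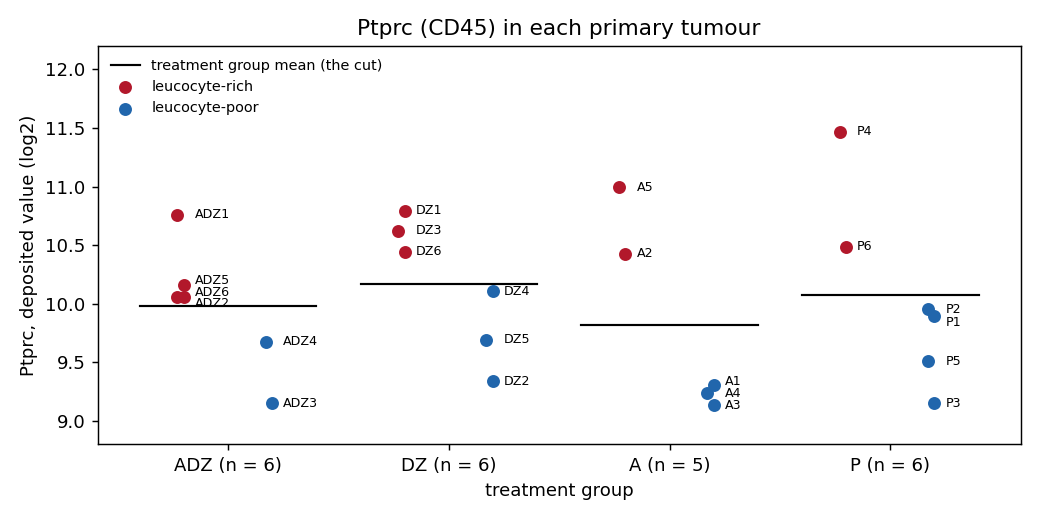
Ptprc (CD45) in each tumour, as the deposited log2 value on the vertical axis, for ADZ, DZ, A and P along the horizontal axis. Red points are leucocyte-rich and blue points leucocyte-poor tumours, and each black line is the mean of a treatment group; P4, at 11.47, is the highest tumour of the series.

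P4 stood apart from the other placebo tumours in many genes, and the count of each gene list below is therefore also given without it, with the other tumours kept in their class. With the rule applied afresh without P4, P1 and P2 move to the rich class. The values of a tumour were scaled by the authors with 1 factor, so that 20 reference genes average 11.4 log2 units in each tumour. That factor had a median of 1.15 in the rich tumours (0.806 to 1.57) and of 0.903 in the poor tumours (0.759 to 1.32), and total gene counts had a median of 1165599 in the rich and 1363800 in the poor tumours, within 882537 to 1677295 over the series. The background, taken as the mean of the negative controls plus 2 SD and times the factor, had a median of 5.04 log2 units in the rich and 4.44 in the poor tumours. After scaling to the reference genes, the median panel gene lay at 8.03 to 9.09 in the rich tumours and at 7.81 to 8.2 in the poor tumours. What part these differences in depth and in overall level have in the results below was not tested, except that the count of each gene list is repeated with each tumour recentred on its own panel median. All genes of a tumour share its factor with Ptprc, and p-values measure the association of a gene with the Ptprc classes over these tumours.

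Leucocyte-rich tumours had higher values for a wide part of the panel. Of the 769 genes other than Ptprc, 220 (28.6%) were called higher and 9 (1.17%) lower in rich than in poor tumours at an adjusted p of 0.05 (limma with treatment as a covariate, Benjamini-Hochberg over 769 genes), while 332 had an unadjusted p under 0.05. The median difference of all 769 genes was 0.31 log2 units and 608 of them were positive, so that the differences of single genes and lists are to be read beside this value. Recentring on the panel median lowered every difference by the same 0.42 units, to a median of −0.11, after which 80 genes (10.4%) were called higher and 182 (23.7%) lower. The share of calls that were higher was 96.1% on the deposited scale and 30.5% after recentring. All 80 genes called higher after recentring were among the 220, and all 9 called lower on the deposited scale were among the 182. Without P4, 177 genes (23%) were called higher, all of them among the 220, and 8 lower. The 80 genes called higher on both scales were also called higher without P4. Applying the rule afresh without P4 gave 169 higher genes, 162 of them among the 220, and 8 lower. With a 2-fold difference required over all tumours, 57 genes were higher. The counts of each list below are to be read beside the shares of all genes. These shares are 28.6% higher on the deposited scale, 23% higher without P4, and 10.4% higher and 23.7% lower after recentring.

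In 10 of the 769 genes (1.30%) the values of the rich and the poor tumours, each taken relative to its group mean, did not overlap. Among them were Tlr8, H2-Eb1, Selplg, Cd180, Itgb2, C1qa, Ciita, Tnfrsf11a and Ccr2, and all 10 were higher in the rich tumours. The smallest p belonged to Tlr8, an endosomal receptor of single-stranded RNA in myeloid cells. It lay at 8.69, 8.90 and 9.49 in the lowest, median and highest of the rich tumours and at 7.501, 7.97 and 8.45 in the poor tumours, so that the classes did not overlap even before centring. Its difference was 1.07 (standard error 0.103, adjusted p = 9.89e-07), with 1.02 without P4 and 0.65 after recentring. H2-Eb1, described below, was likewise apart before centring. Cd180, a receptor that modulates Toll-like signals on B cells and macrophages, differed by 1.24 (standard error 0.168) and Gbp2b, an interferon-induced GTPase, by 2.67 (standard error 0.347), with adjusted p = 3.56e-05 and 2.25e-05. Gbp2b lay at or below the background in 14 of the 23 tumours, some rich tumours among them, so that its level in most tumours is poorly measured.

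**Figure D2:**
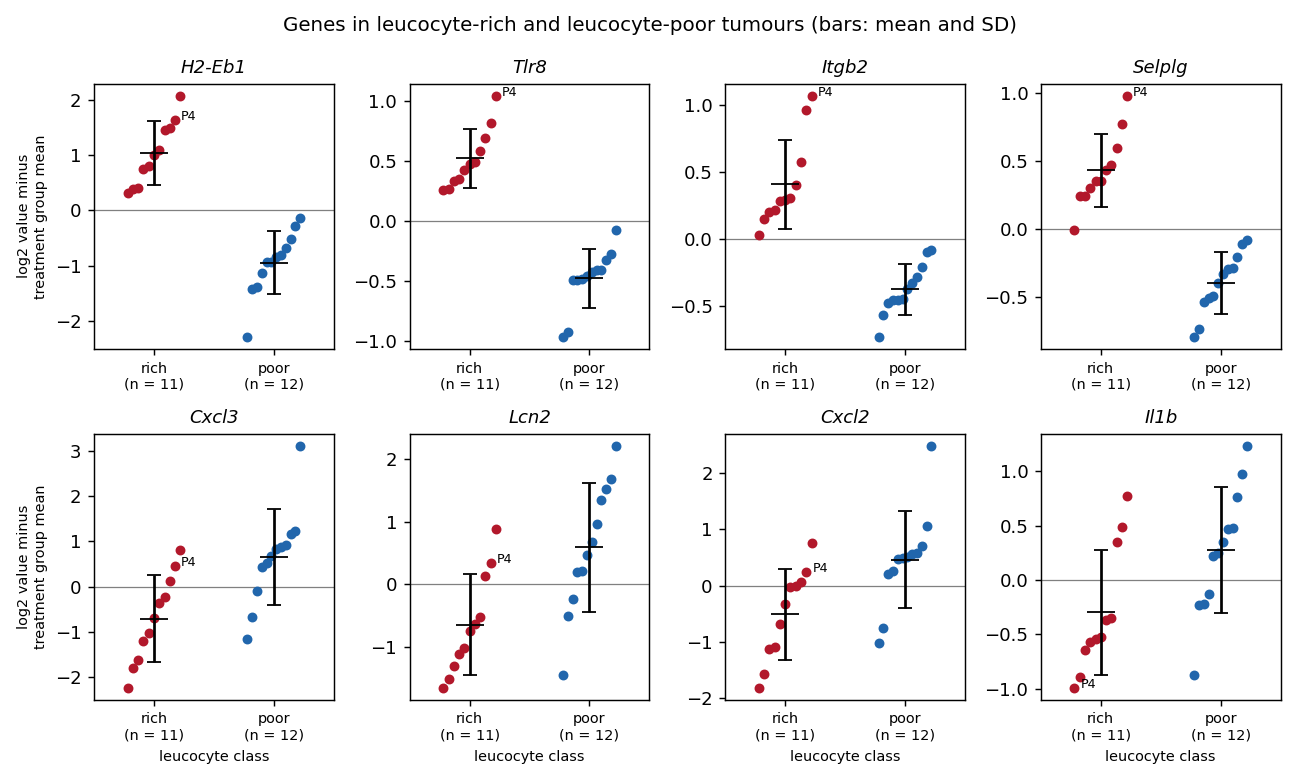
Values of 8 genes in the 11 leucocyte-rich (left, red) and 12 leucocyte-poor tumours (right, blue), as log2 value minus the mean of the treatment group, with the class mean and SD as bars and P4 marked. The classes lie apart for H2-Eb1, Tlr8, Itgb2 and Selplg, all higher in rich tumours, and overlap for Cxcl3, Lcn2, Cxcl2 and Il1b.

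Genes that leucocytes share were the first check of the split, since none of them was used to make it. Of 7 pan-leucocyte genes other than Ptprc, 6 were higher in rich tumours, with a median difference of 0.84 beside 0.31 for all genes, 6 without P4 and 4 after recentring. Itgb2, the beta chain of the leucocyte integrins, lay at 10.20, 10.48 and 11.38 in the rich and 9.44, 9.84 and 10.23 in the poor tumours (difference 0.84, standard error 0.119, adjusted p = 4.93e-05). Cd48, an adhesion ligand of most blood cells, differed by 0.92 and Ikzf1, the lymphoid transcription factor Ikaros, by 1.16. Cd37, a tetraspanin found above all on B cells, did not pass, at 9.09, 9.74 and 11.27 in the rich and 9.35, 9.85 and 10.19 in the poor tumours (difference 0.15, standard error 0.181). When the tumours were split by the mean of these 7 genes instead of Ptprc, 22 of the 23 stayed on their side and ADZ5 changed. With the rule applied to recentred Ptprc values, 19 of the 23 stayed, and P1, DZ4, DZ6 and ADZ6 changed. A cut of Ptprc at the group median instead of the mean kept 21, and P2 and ADZ2 changed.

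Of 10 genes of leucocyte integrins and adhesion, 7 were higher in rich tumours, with a median of 0.86, 6 without P4 and 5 after recentring, where Icam1 was called lower. Selplg, the P-selectin ligand on which leucocytes roll along vessels, lay at 9.64, 10.13 and 10.75 in the rich and 8.91, 9.28 and 9.67 in the poor tumours (difference 0.88, standard error 0.109, adjusted p = 1.67e-05). The integrin alpha chains Itgal, Itgam, Itgax and Itga4 differed by 0.96, 0.97, 0.96 and 0.87. Icam1, a ligand of these integrins that tumour cells and endothelium also make, differed by −0.05 and did not pass.

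The MHC class II genes had the largest median difference among the lists with over 2 genes. Class II molecules present peptides from outside the cell to CD4+ T cells and are made by dendritic cells, macrophages and B cells. Their genes are switched on together by the transactivator Ciita, which binds no DNA itself and is held at the promoter by factors on conserved sequence boxes, one of which, the Y box, is bound by NF-Y. All 9 measured class II genes were higher in rich tumours, with a median of 1.43 on the deposited scale, 1.28 without P4, where all 9 passed again, and 1.01 after recentring, where 6 passed. RefSeq promoters of the GRCm38.p6 build, which run from 250 bases before to 50 after the start of a gene, were at hand for 6 of the 9. They were searched on both strands for 4 letter strings, and the promoters of the 2 genes that hold the Y box string CTGATTGG are printed to show where that string lies in them, in capitals.
H2-Aa: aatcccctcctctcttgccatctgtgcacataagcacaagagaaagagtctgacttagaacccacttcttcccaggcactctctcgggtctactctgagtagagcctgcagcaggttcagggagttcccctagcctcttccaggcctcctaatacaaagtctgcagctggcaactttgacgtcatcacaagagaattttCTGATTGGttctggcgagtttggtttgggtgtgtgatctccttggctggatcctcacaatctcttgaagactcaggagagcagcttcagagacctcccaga
H2-Eb1: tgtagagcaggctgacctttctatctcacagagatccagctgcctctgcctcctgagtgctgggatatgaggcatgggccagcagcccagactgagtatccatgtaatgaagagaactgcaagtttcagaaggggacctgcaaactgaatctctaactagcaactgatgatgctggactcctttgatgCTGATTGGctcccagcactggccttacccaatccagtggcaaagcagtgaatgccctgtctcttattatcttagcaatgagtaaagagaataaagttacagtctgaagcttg
The promoter of H2-Aa lies at chr17:34287774-34288073 on the minus strand and that of H2-Eb1 at chr17:34305617-34305916 on the plus strand, both printed 5′ to 3′ along the gene. The string starts 51 bases before the start of H2-Aa and 62 bases before that of H2-Eb1. It occurs in 4.10% of all 32851 promoters, and its core GATTGG, which lies within it, occurs in 16.1% of them and in 6 of the 6 class II promoters. The string AGCAACAG, written after the X box, and the string GAGGAAGT, written after the site of the myeloid factor PU.1, were in none of these 6 and in 2.26% and 3.20% of all promoters. A match or the lack of one describes these exact letters only, and a box or site may be written in other letters.

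H2-Eb1, the beta chain of the I-E molecule, lay at 11.33, 12.03 and 13.04 in the rich and 8.94, 10.11 and 10.82 in the poor tumours, with the highest value in A5 and the lowest in ADZ3. Its difference of 2.12 (standard error 0.227, adjusted p = 2.94e-06) is 4.35-fold. H2-Aa, the alpha chain of the I-A molecule whose beta chain is H2-Ab1, lay at 12.34, 13.57 and 14.92 in the rich and 11.36, 11.84 and 12.95 in the poor tumours (difference 1.62, standard error 0.251, adjusted p = 7.99e-05), with an overlap of the classes. Cd74, the invariant chain that guides class II molecules through the cell, lay at 12.95, 13.97 and 14.87 in the rich and 11.58, 12.30 and 13.15 in the poor tumours (difference 1.66, standard error 0.207, adjusted p = 1.67e-05). H2-Ab1 differed by 1.69 and Ciita by 1.43 (adjusted p = 3.91e-05 and 7.09e-05). The smallest difference was that of H2-DMb1, a chain of the peptide exchange factor, at 0.69.

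Macrophage genes were higher in rich tumours as well, with more weight on P4. Of 15 macrophage and monocyte genes, 11 were higher, with a median of 0.97, 9 without P4, where the median was 0.78, and 7 after recentring, where Cd14 was called lower. Csf1r, the receptor on which macrophages depend for survival, differed by 1.19 (standard error 0.207, adjusted p = 2.11e-04), Cx3cr1, the fractalkine receptor, by 1.31 (standard error 0.202, adjusted p = 7.99e-05) and Siglec1, a sialic acid receptor of tissue macrophages, by 1.55 (standard error 0.391, adjusted p = 0.00517). Lyz2, lysozyme of myeloid cells, lay at 13.34, 14.01 and 16.01 in the rich and 12.36, 13.27 and 14.51 in the poor tumours (difference 1.01, standard error 0.27, adjusted p = 0.00745), and its highest value was in P4. Cd68, a lysosomal protein of macrophages, differed by 0.43 (adjusted p = 0.00225) on the deposited scale and by 0.01 after recentring, where it no longer passed. Cd14, the coreceptor for bacterial lipopolysaccharide, differed by −0.18, and Msr1, Cd163 and Mrc1, scavenger and mannose receptors, by 0.27, 1.10 and 0.54, and none of these 4 passed.

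Of the 5 Fc gamma receptor genes, which bind antibody-coated targets, 4 were higher, 3 without P4 and 2 after recentring, led by the activating receptor Fcgr4 (1.25) and the signal chain Fcer1g (0.73, standard error 0.113, adjusted p = 7.99e-05). The inhibitory receptor Fcgr2b differed by 0.29 on the deposited scale (adjusted p = 0.0294) and by −0.13 after recentring. Of 25 complement genes, 8 were higher, a share of 32% beside 28.6% of all genes, with a median of 0.59. The count was 7 without P4 and 7 after recentring, and 10 of the 25 lay mostly at or below the background. C1qa, a chain of the recognition complex that macrophages make, lay at 11.84, 12.21 and 12.88 in the rich and 9.68, 11.12 and 12.002 in the poor tumours (difference 1.36, standard error 0.203, adjusted p = 6.53e-05), and C1qb differed by 1.22. Cfb, a protease of the alternative pathway, differed by 0.97 (standard error 0.14, adjusted p = 5.45e-05) and C4b by 2.0 (standard error 0.525, adjusted p = 0.00663). Of 16 Toll-like receptor and signal genes, 6 were higher (37.5%, beside 28.6% of all genes), and 6 without P4. They were Tlr1, Tlr5, Tlr7, Tlr8, Tlr9 and the brake Irak3, at 0.95, 0.97, 0.92, 1.07, 0.91 and 0.80. The receptors Tlr2, Tlr3, Tlr4 and Tlr6 differed by −0.12 to 0.16, the adaptor Myd88 by −0.18 and the kinase Irak1 by 0.05, and none of these passed. After recentring the same 6 genes were called higher and 8 of the 16 lower, Tlr2, Tlr4, Tlr6, Myd88 and Irak1 among them. Of all genes, 10.4% were then called higher and 23.7% lower.

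Of 8 dendritic cell genes, 4 were higher, a share of 50% beside 28.6% of all genes, with a median of 0.67. The count was 4 without P4 and 1 after recentring, where 10.4% of all genes were called higher. Cd83, which marks mature dendritic cells, lay at 8.37, 8.63 and 9.53 in the rich and 7.20, 7.75 and 8.45 in the poor tumours (difference 0.99, standard error 0.144, adjusted p = 5.45e-05), with 9 of the 11 rich tumours above all poor tumours. Xcr1 and Flt3, the chemokine receptor and growth factor receptor of cross-presenting dendritic cells, differed by 0.87 and 0.49, and Irf8, their transcription factor, by 0.28, which did not pass (adjusted p = 0.0585).

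Nearly all T cell genes were higher in rich tumours. Of 16, 15 were called, with a median of 0.85, and 10 without P4, with a median of 0.63. With the rule applied afresh without P4, 7 were called, with a median of 0.57. After recentring 4 were called, with a median of 0.43. Cd3g, a chain of the T cell receptor complex, lay at 6.76, 7.81 and 8.78 in the rich and 6.79, 7.41 and 8.02 in the poor tumours, with a wide overlap (difference 0.65, standard error 0.208, adjusted p = 0.0218, and 0.0592 without P4). Cd247 and Zap70, the zeta chain and the kinase it recruits, differed by 1.22 and 1.16, and the coreceptors Cd4 and Cd8a by 1.02 and 0.79. Lck, the kinase bound to those coreceptors, differed by 0.61 (standard error 0.206, adjusted p = 0.0291, and 0.0819 without P4). Of the 4 Treg genes Ctla4 was called (0.83), but not without P4 or after recentring, while Foxp3, Ikzf2 and Il2ra differed by 0.70, 0.16 and 0.20 and did not pass.

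Of 15 genes of NK and cytotoxic cells, 10 were higher, and 10 without P4 too, with medians of 0.67 and 0.70, but 3 after recentring, with a median of 0.25. Il2rb, the IL-2 and IL-15 receptor chain, lay at 8.58, 9.31 and 10.05 in the rich and 7.63, 8.40 and 8.68 in the poor tumours, so that 10 of the 11 rich tumours lay above all poor tumours (difference 1.05, standard error 0.152, adjusted p = 5.45e-05). Klrd1, the CD94 chain of NK receptors, differed by 0.92 (standard error 0.166, adjusted p = 3.35e-04), Gzma, granzyme A, by 0.72, and Prf1, perforin, by 0.34, which did not pass. Of 11 inhibitory checkpoint genes, 8 were higher, with a median of 0.57, and 6 without P4, among them Pdcd1, the gene of PD-1, at 0.54 and Havcr2, the gene of TIM-3, at 0.57. Cd274, the ligand of PD-1, lay at 10.20, 11.16 and 11.57 in the rich and 10.15, 10.70 and 11.32 in the poor tumours and did not pass (difference 0.32, adjusted p = 0.141). After recentring 1 checkpoint gene was called higher. Of 11 costimulation genes, 4 were higher, a share of 36.4% beside 28.6% of all genes, and 4 without P4. Among them was Cd86, a ligand of CD28 on antigen-presenting cells (0.66, standard error 0.116, adjusted p = 2.56e-04), while Cd40 differed by −0.22 and did not pass. After recentring none of the costimulation genes was called higher and 2 were lower, Cd40 being one.

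B cell and lymph node genes had positive median differences that were smaller without P4. Of 14 B cell genes, 6 were higher, a share of 42.9% beside 28.6% of all genes, with a median of 0.78. Without P4, 4 were called and the median was 0.35. After recentring 3 were called, and 9 of the 14 lay mostly at or below the background. Relative to the group means, the mean of the 14 genes ran from −0.73 (P6) over a median of 0.28 to 3.09 (P4) in the rich tumours, and from −0.76 to 0.14 in the poor tumours. Cd79b, a signalling chain of the B cell receptor, lay at 4.74, 5.90 and 10.59 in the rich and 3.77, 4.30 and 5.10 in the poor tumours, with the highest value in P4 (difference 2.0, standard error 0.423, adjusted p = 0.00146), and differed by 1.43 without P4 (adjusted p = 7.96e-05). Its median in the poor tumours was under their median background of 4.44, so that its level there is poorly measured. Its lowest rich value was likewise under the median background of the rich tumours, 5.04. Blnk, an adaptor below that receptor, differed by 1.33 (standard error 0.348, adjusted p = 0.00663). Of 9 lymph node genes, 3 were higher, a share of 33.3% beside 28.6% of all genes, with a median of 0.71. Without P4 the count was 2 and the median 0.47, and after recentring none was called. Their mean ran from −0.91 (P6) to 3.37 (P4) in the rich and from −1.01 to 0.31 in the poor tumours. Ccr7, the chemokine receptor that guides T cells and dendritic cells to lymph nodes, differed by 0.40 and did not pass (adjusted p = 0.0579). Glycam1, an adhesion ligand of lymph node vessels that mammary epithelium also makes, lay at or below the background in 22 of the 23 tumours and at 9.06 in P4. P4 and P6 are the only rich tumours of the placebo group and stood at opposite ends of the rich class for these genes. Whether lymphoid tissue was in the RNA of P4 was not tested.

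**Figure D3:**
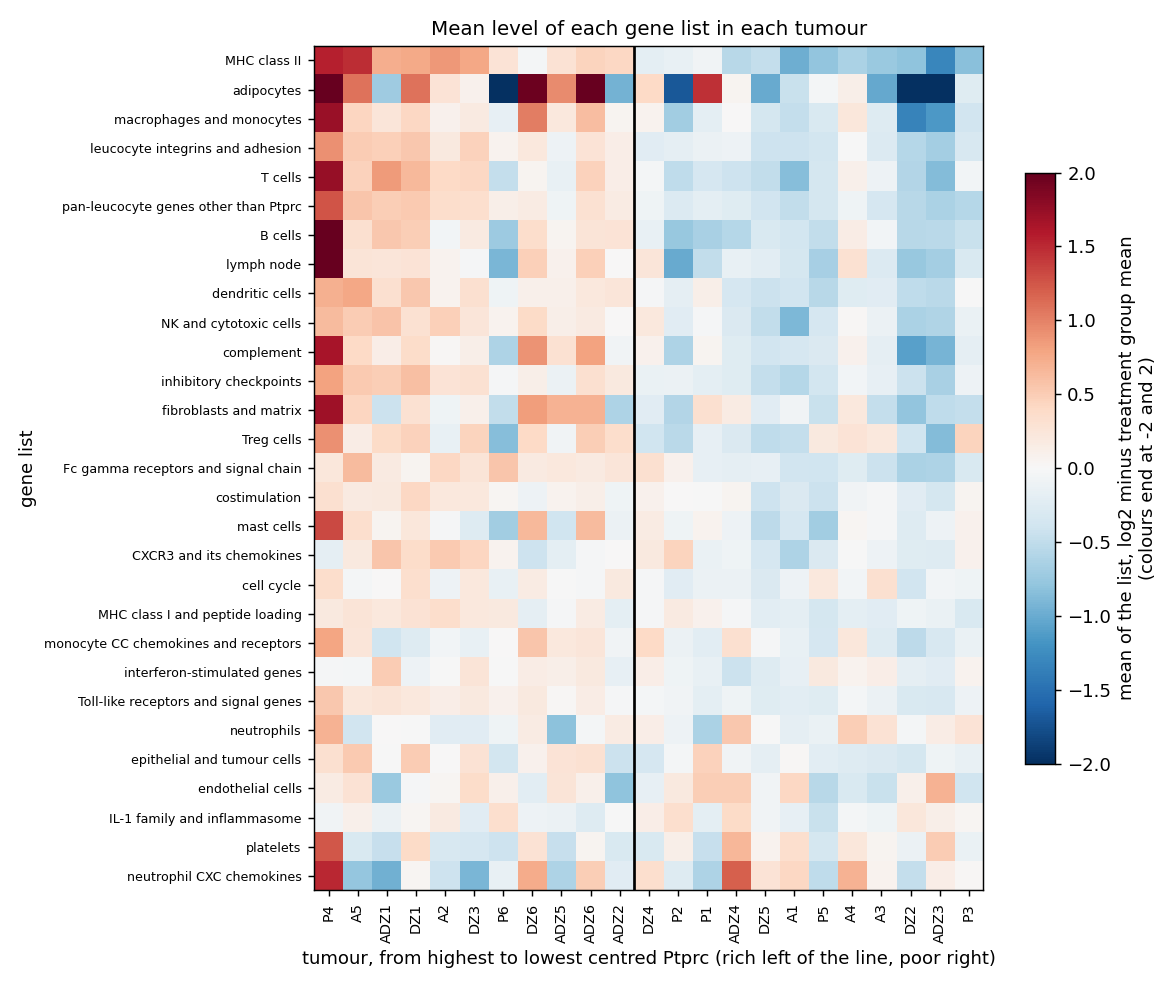
Mean level of each gene list (rows) in each of the 23 tumours (columns, from highest to lowest centred Ptprc, with the leucocyte-rich tumours left of the line and the leucocyte-poor tumours right of it), as log2 value minus the mean of the treatment group. MHC class II genes are above the group mean in 10 of the 11 rich tumours, with DZ6 at −0.04, whereas B cell and lymph node genes peak in P4, at 3.09 and 3.37.

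Genes of antigen presentation by class I and of interferon responses had median differences below that of all genes. Of 11 class I genes, 4 were higher, a share of 36.4% beside 28.6% of all genes, with a median of 0.23, but 2 without P4 and 1 after recentring. H2-T23, the gene of the Qa-1 molecule that NK cells read, lay at 11.40, 11.89 and 12.51 in the rich and 10.55, 10.94 and 11.81 in the poor tumours (difference 1.0, standard error 0.138, adjusted p = 3.93e-05). H2-D1, a classical class I gene, lay at 15.22, 15.77 and 16.17 in the rich and 15.08, 15.74 and 15.97 in the poor tumours (difference 0.06, 95% interval −0.21 to 0.32). Of 22 interferon-stimulated genes, 2 were higher, Oas2 (0.52) and Ifit3 (0.44), with a median of 0.16, 1 without P4, and after recentring none was higher and 4 were lower. Bst2, a surface protein induced by interferon, differed by 0.08 and Ifi44 by −0.17. None of the 4 genes of Cxcr3 and its interferon-induced chemokines passed, without P4 or after recentring either, with Cxcl10 at 0.28 (95% interval −0.05 to 0.61) and Cxcl9 at 0.16 (95% interval −0.47 to 0.79).

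The 9 genes that were lower in rich tumours were Cxcl3, Lcn2, Relb, Sele, Osm, Cxcl2, Ccl3, Ccl2 and Csf3. Cxcl2 and Cxcl3 are chemokines that draw neutrophils through Cxcr2, Csf3 is the growth factor of neutrophils, and Lcn2 is an iron-binding protein of neutrophil granules and of inflamed epithelium. Ccl2 and Ccl3 draw monocytes and other leucocytes, Osm is a cytokine of the IL-6 family, Sele is the endothelial selectin that catches rolling leucocytes and Relb is a subunit of NF-kB. Cxcl3 lay at 5.29, 6.88 and 9.57 in the rich and 7.61, 8.81 and 10.19 in the poor tumours (difference −1.46, standard error 0.439, adjusted p = 0.0158). Lcn2 lay at 8.50, 9.16 and 11.58 in the rich and 9.25, 10.74 and 12.02 in the poor tumours (difference −1.32, standard error 0.402, adjusted p = 0.0170). Cxcl2 lay at 5.89, 7.52 and 9.43 in the rich and 7.66, 8.84 and 9.94 in the poor tumours (difference −1.04, standard error 0.365, adjusted p = 0.0356). The classes overlapped in all 3 genes, and the highest rich tumour was P6 in each. Ccl2, the most abundant of the 9, differed by −0.42 (standard error 0.156, adjusted p = 0.0456), Ccl3 by −0.56, Osm by −0.66, Sele by −0.80, Relb by −0.28 and Csf3 by −1.32, with adjusted p between 0.0269 and 0.0488. Cxcl3, Lcn2, Cxcl2 and Ccl3 remained among the 8 genes called lower without P4. All 9 were called lower after recentring, as were 182 (23.7%) of all genes, since recentring lowered every difference by 0.42 units. With the rule applied afresh to recentred values, 2 genes were lower. The calls on the deposited scale rested on few tumours, since the count of lower genes was 0 without ADZ3, whose removal moves ADZ2 and ADZ6 to the poor class, and 29 without P6. It was 2 without DZ2, 3 without DZ1 or ADZ4, 4 without A5, DZ3 or DZ5, 5 without P2 or ADZ1, 14 without P1 and 16 without A2.

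Ccr2, the receptor through which Ccl2 draws monocytes, was higher in rich tumours while Ccl2 itself was lower. Ccr2 lay at 9.44, 9.87 and 10.86 in the rich and 8.63, 9.06 and 9.84 in the poor tumours (difference 0.91, standard error 0.167, adjusted p = 3.71e-04). Of the 12 monocyte CC chemokine and receptor genes, 2 were higher and 2 lower, with a median of 0.19. Without P4 these counts were 2 and 1, and after recentring 1 and 4. Of the 6 neutrophil CXC chemokines Cxcl2 and Cxcl3 were the ones called, and the median of the list was −0.47 (−0.78 without P4), against 0.31 for all genes. Without P4 and after recentring 3 of them were called lower. Of 9 neutrophil genes none was higher and Lcn2 was lower, 3 were lower without P4 and 3 after recentring, and 4 of them, the granule genes Camp, Mpo, Elane and Ltf, lay mostly at or below the background. S100a8, a calcium-binding protein of neutrophils and monocytes, lay at 9.09, 11.09 and 13.37 in the rich and 10.53, 12.16 and 12.52 in the poor tumours (difference −0.66, adjusted p = 0.170, and −0.95 with adjusted p = 0.0430 without P4), and Cxcr2 differed by −0.80 (adjusted p = 0.0832, and 0.0195 without P4).

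Il1b, Il1rn and Il1r1, 3 genes of the pathway that Anakinra blocks, did not pass on the deposited scale. Il1b, the cytokine IL-1B, lay at 9.79, 10.37 and 11.91 in the rich and 10.27, 11.16 and 12.11 in the poor tumours (difference −0.61, 95% interval −1.14 to −0.08, adjusted p = 0.0772). Il1rn, the natural receptor antagonist, lay at 9.68, 10.56 and 11.52 in the rich and 10.68, 11.19 and 11.93 in the poor tumours (difference −0.50, 95% interval −0.95 to −0.05, adjusted p = 0.0832). Il1r1, the receptor, differed by −0.08 (95% interval −0.40 to 0.25, adjusted p = 0.711). All 3 were called lower after recentring, at −1.03, −0.92 and −0.49, as were 23.7% of all genes. In each of these values, −0.42 is the shift that recentring gave every gene. Of 12 genes of the IL-1 family and the inflammasome, 2 were higher, the inflammasome adaptor Pycard (0.83, adjusted p = 4.07e-04) and the IL-18 receptor chain Il18r1 (0.73, adjusted p = 0.00894), and the median of the list was −0.07. Without P4 the count was again 2, and after recentring 1 was higher and 7 were lower.

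**Figure D4:**
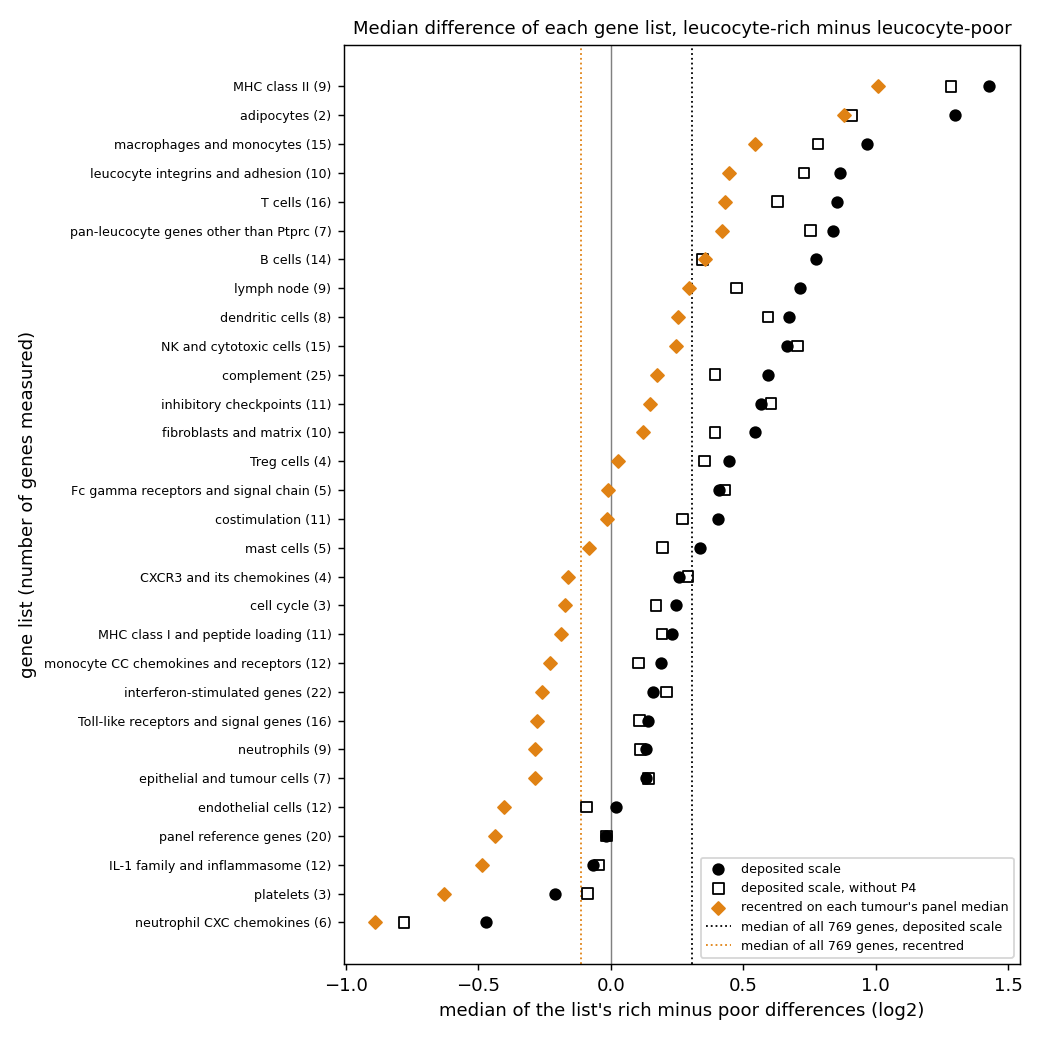
Median of the rich minus poor differences of each gene list (rows, with the number of genes measured) on the deposited scale (black points), without P4 (open squares) and after recentring on each tumour's panel median (orange diamonds). Dotted lines are the medians of all 769 genes, 0.31 and −0.11; MHC class II has the highest median among lists with over 2 genes and the neutrophil CXC chemokines the lowest in all 3.

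Genes of the cells that do not make CD45 were measured as well. Of 12 endothelial genes none was higher and Sele was lower, with a median of 0.02. That median joins treatments of opposite sign, at −1.10 in ADZ, 0.22 in DZ, 0.18 in A and 0.24 in P. None of the 12 was called without P4, and 4 were lower after recentring, beside 23.7% of all genes. Pecam1, the junction protein CD31, lay at 8.63, 9.40 and 9.84 in the rich and 8.06, 9.46 and 9.998 in the poor tumours. Of 10 genes of fibroblasts and matrix, 2 were higher (20%), Fap and Thy1, and neither passed without P4 or after recentring, where 1 other was lower. Col3a1, a fibrillar collagen, differed by 0.37 (adjusted p = 0.274). Of 7 epithelial and tumour cell genes, 2 were higher, a share of 28.6% that is also that of all genes. The list median was 0.13, beside 0.31 for all genes. The 2 were Epcam (1.07, adjusted p = 0.0369) and Muc1 (0.62, adjusted p = 0.00517), while the integrin chain Itga6 and the receptor Egfr differed by −0.11 and −0.13 and did not pass. Neither Epcam nor Muc1 passed after recentring, where 2 of the 7 were lower, and Epcam did not pass without P4. The 2 adipocyte genes differed from each other in spread. Cfd, adipsin, ran from 3.78 to 14.10 in the rich and from 4.73 to 12.40 in the poor tumours (difference 1.57, standard error 1.10, adjusted p = 0.276), whereas Pparg, the regulator of fat cells that some macrophages also express, lay at 5.21, 6.23 and 7.83 in the rich and 4.77, 5.35 and 5.97 in the poor tumours (difference 1.04, standard error 0.206, adjusted p = 8.10e-04), and passed without P4 and after recentring too. None of the 5 mast cell, 3 platelet, 3 cell cycle and 20 reference genes was called, at median differences of 0.34, −0.21, 0.25 and −0.02, the last set near 0 by the scaling. Without P4, 1 platelet gene was lower, and after recentring 1 mast cell, 1 platelet, 1 cell cycle and 15 reference genes were lower.

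The difference between the classes was compared across the treatments, with 4 rich and 2 poor tumours in ADZ, 3 and 3 in DZ, 2 and 3 in A and 2 and 4 in P. H2-Eb1 differed by 2.56 in ADZ, 1.89 in DZ, 2.57 in A and 1.53 in P, and Tlr8 by 1.0, 1.02, 1.04 and 1.23 in the same order. Of the 220 genes called higher, 198 (90%) were higher in rich tumours within each of the 4 treatments, as were 275 (35.8%) of all 769 genes, a description of the values that made the calls. The genes called lower varied more, with Cxcl3 at −3.20 in ADZ, −1.48 in DZ, −2.16 in A and 0.94 in P, and Lcn2 at −2.66, −2.58, −0.73 and 0.92 in the same order. By limma no gene passed the test of a difference between treatments (0 of 769, with 102 at an unadjusted p under 0.05), and the smallest adjusted p was 0.147 for Lcn2. For Cxcl3 it was 0.232. That count was 168 when P4 was left out and the rule applied afresh, which moves P1 and P2 to the rich class, 46 without P6 and 2 without P2, and 0 when P4 was left out with the classes kept.

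**Figure D5:**
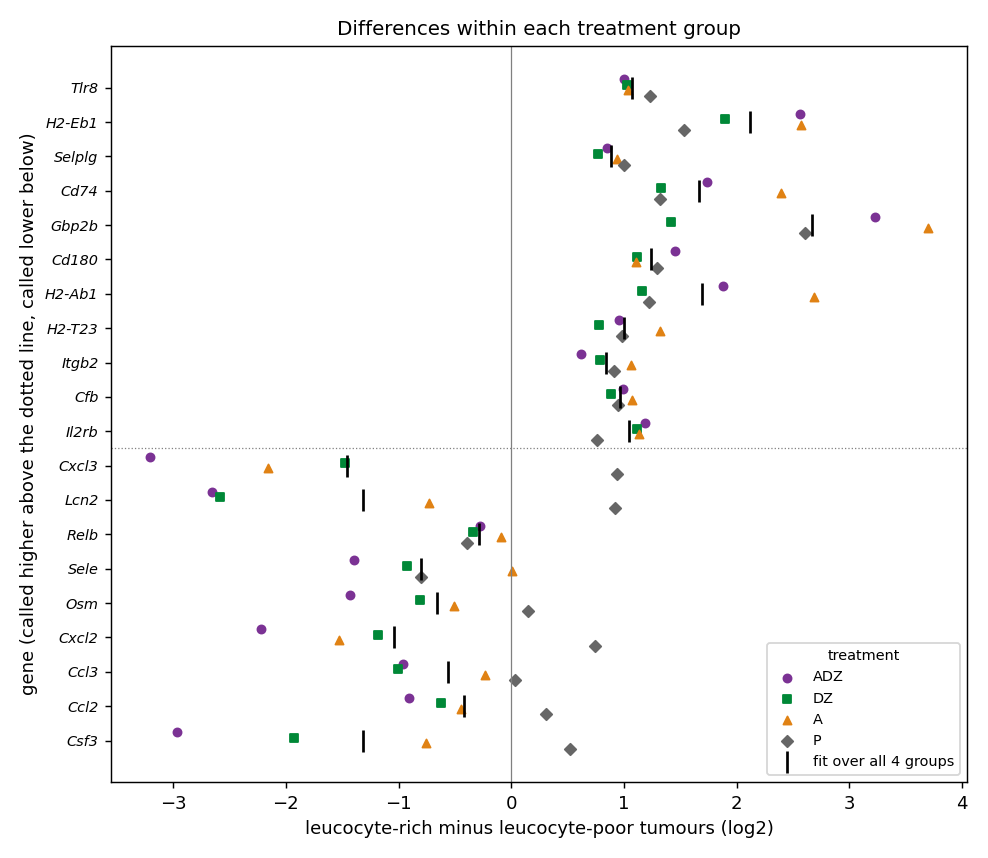
Rich minus poor difference (horizontal axis, log2) of 11 genes called higher, all among the 12 with the smallest p, and the 9 genes called lower (vertical axis), within ADZ, DZ, A and P (symbols) and in the fit over all tumours (black bars). The 11 higher genes are above 0 in each treatment, while Cxcl3, Lcn2, Cxcl2, Ccl2, Ccl3, Csf3 and Osm are above 0 in P and below 0 in ADZ, DZ and A.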

How the data were processed

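The panel was counted in RNA of 23 E0771 luc2 GFP primary tumours, and the authors processed the counts with nSolver and Advanced Analysis. The deposited table holds log2 values, 1 column per tumour, for 770 genes, of which 20 are reference genes, and for 8 negative and 6 positive control probes. The authors scaled each tumour by 1 factor on its reference genes. Dividing that factor out gave whole counts, within 0.05, for 100% of the values other than 6 of exactly 0, which were kept. Whether background was subtracted is not given in the sources used here. Of the 770 symbols, 756 matched the reference annotation, 8 matched by synonym and 6 did not match.

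The tumours were sorted on Ptprc minus its treatment group mean. The other 769 genes were fitted on the deposited log2 values with the moderated two-sided test of limma (version 3.58.1, under R 4.3.3), with the 4 treatments as a covariate, and differences between treatments with an F test of the split by treatment terms. Calls are at a Benjamini-Hochberg adjusted p of 0.05, with no filter on low values. The p-values treat each tumour as a separate sample. Lists are described by counts and medians, and some share genes. The classes, lists and genes were chosen with earlier results of these data known. The genes named are the 12 higher and 8 lower called genes with the smallest p, the 2 most abundant genes of each list, the IL-1 genes and the adipocyte genes, except a few that are not reported here. Other list members and Csf3, the ninth lower gene, were named after their values were seen, as was the Y box. The rule had set promoters with the PU.1 string for printing (Tlr9, Fcgr4 and Pik3cg), but 6.79% of called higher and 4.46% of uncalled genes with a promoter hold it, and class II promoters were printed instead. Like-numbered tumours did not deviate together (12 of 33 pairs correlated above 0.1), so that the replicate number was a block only in an alternative. The labels give no batch. Alternatives covered tumours left out, pseudocounts, low values, scaling, the split, the model and a 2-fold threshold. Figures were drawn with matplotlib 3.10.9.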

Additional observations from a re-analysis of the deposited data

Results flagged for a closer look

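Each list level was checked in each treatment group for a tumour far from the others (Dixon's test, 124 combinations), which chance flags in about 1 of 20 groups, and 14 combinations were flagged. P4 was the highest placebo tumour in 11 of them. Its mean log2 level was 7.96 for B cell genes and 9.37 for lymph node genes, against 4.42 and 5.70 in the next placebo tumour, 11.13 against 9.25 for macrophage genes, 7.68 against 5.88 for T cell genes and 8.84 against 7.25 for complement. It also stood apart for platelet genes (8.81), monocyte CC chemokines and receptors (11.33), neutrophil CXC chemokines (8.73), inhibitory checkpoints (7.61), leucocyte integrins and adhesion (9.46) and all genes tested (8.77). P4 is leucocyte-rich.

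ADZ3, a leucocyte-poor tumour, was the lowest of ADZ for macrophage genes at 7.83, against 8.995 in the next tumour. ADZ1, a rich tumour, was the highest of ADZ for Cxcr3 and its chemokines at 9.83, against 9.27. A3, a poor tumour, was the highest of A for cell cycle genes at 9.44, against 9.08. No difference between treatments passed its test on all 23 tumours, so that none was flagged.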

How the results depend on the processing

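The count of 220 genes higher in rich tumours stayed within 1.5 times under 14 alternatives (162 to 285, the last with a replicate block, which gave 13 lower genes) and fell outside it after recentring on the panel median (80), recentring with the rule applied afresh (28), quantile normalization (78), recentring without P4, an alternative added after seeing the data (62), and with a 2-fold difference required (57). Over the fits that leave out 1 tumour it ran from 140 (without ADZ3) to 330 (without P6). Without P4 and with the rule applied afresh, list counts of higher genes moved both ways from those with the classes kept. They fell for T cell (7), B cell (2), lymph node (1), class II (8), NK and cytotoxic (9) and interferon-stimulated genes (0). They rose for dendritic cell (5), fibroblast and matrix (1), Fc gamma receptor (4), complement (8) and class I genes (4). The count of 9 lower genes was 2 without the 3 tumours near the cut, 182 after recentring, 2 with the rule then applied afresh, 100 after quantile normalization, 0 with the split at the group median, 4 with the split by the other pan-leucocyte genes, 4 at 2-fold, 110 after recentring without P4, and from 0 (without ADZ3) to 29 (without P6) with 1 tumour left out. Genes whose difference varied between treatments numbered 0 to 168 with 1 tumour left out. They numbered 0 with either pseudocount, either filter on low values, values raised to the background, recentring or quantile normalization. The count was also 0 with P4 left out and the classes kept, and it was not taken under the other alternatives. Of 3063 values of the 73 named genes under the alternatives, 173 lost a call and 6 turned sign with a call on either side. These were Fcgr2b (−0.13 recentred, −0.019 with the rule afresh and −0.063 recentred without P4), Irak1 (−0.37) and Rpl19 (−0.41) recentred, and Cd37 (−0.38) recentred without P4. A further 103 values turned sign with no call on either side. The medians of 12 of the 30 lists turned sign after recentring. Of the 220 genes, 118 were called higher in each of the 23 fits with 1 tumour left out, and none of the 9 lower genes was called in all of them. Of the 220, 21 lay at or below the background in at least 12 tumours, and 198 genes were called higher with values raised to the background. No paired samples are given by the labels. The causes of these changes were not tested.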
